A study of Homo sapiens with 16 samples.

Results

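JURKAT is an established T cell leukemia line, and its baseline transcriptome was set against 4 lines of B lineage: RS4-11, KOPN8, RAJI and P493-6. The comparison used 10 of the 16 libraries of the series, chosen by cell line: 2 from JURKAT and 8 from the B-lineage lines. Each line had 1 library with the DPY30-binding peptide Y518R and 1 with the non-binding peptide 3R, so that every line in the comparison had met both peptides and none was untreated. Peptide was kept as a term in the model, and the values below concern the lines, not the peptide. Per the labels, JURKAT depends on Myc, RS4-11 is a leukemia with an MLL-AF4 fusion, KOPN8 is one with an MLL-ENL fusion, RAJI is a Burkitt's lymphoma and P493-6 models that lymphoma. The B lineage of the 4 lines is not written in the labels and was checked on marker genes. The other lines of the series, MOLM13, THP1 and K562, entered only where stated. Each line is 1 cell line and stands for no cell type as a whole.

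T cells and B cells arise from lymphoid progenitors and come to use parallel but distinct machinery. A T cell receptor signals through the CD3 chains, the kinases LCK and ZAP70 and the adaptor LAT. A B cell receptor signals through CD79A and CD79B, the kinases LYN, SYK and BTK and the adaptor BLNK. In B cells the factor PAX5 holds the lineage program, and CIITA switches on the MHC class II genes that present antigen to T cells. In the thymus TCF7 and BCL11B carry T cell commitment, and a share of T cell leukemias express the oncogenic factor TAL1, which is normally off in maturing T cells.

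Defining markers were read first. CD3D, which carries the signal of the T cell receptor into the cell, was at 398 and 379 CPM, the counts scaled to a common library total, in the JURKAT libraries (3R first, here and below), against 0.0334 to 0.244 CPM (median 0.0885) in the B-lineage libraries. CD3E was at 396 and 376 CPM in JURKAT and 0.0948 to 5.35 CPM (median 1.48) in the B-lineage libraries. CD3G was at 152 and 138 CPM in JURKAT, against 0 to 0.323 CPM (median 0.0475). Both JURKAT libraries were far above all 8 others for each of these chains, and the groups did not overlap. Lack of overlap alone was common. Of all 15188 tested genes, 2701 were higher and 1967 lower in JURKAT without overlap. CD79A, a signalling chain of the B cell receptor, was at 19.96 and 17.9 CPM in JURKAT, against 406 to 576 CPM (median 497). MS4A1, which encodes CD20, was at 0.252 and 0.304 CPM in JURKAT and 0.261 to 1380 CPM (median 487) in the B-lineage libraries. RS4-11 was low for MS4A1 and overlapped JURKAT, so that this marker did not set all 4 lines apart. Markers of other blood cells were read as well. The 16 myeloid genes summed to 20.2 and 15.2 CPM in JURKAT and to 8.57 to 85.1 CPM in the B-lineage libraries, with MPO at 0 in JURKAT, and none of the 12 that could be tested was separating in the sense defined below. The 14 NK cell genes summed to 22.9 and 20.4 CPM in JURKAT and 0.794 to 88.5 CPM in the B-lineage libraries, with GNLY at 0 in JURKAT. Of 6 tested NK cell genes 2 were separating and higher in JURKAT, namely GZMM and EOMES, and T cells can carry both. EOMES was at 7.48 and 6.87 CPM in JURKAT, against 0 to 0.0359 CPM (median 0). Of the 14 erythroid and megakaryocyte genes, TFRC, the transferrin receptor that dividing cells of many kinds carry, held nearly all of the sum (416 CPM in JURKAT 3R of 426); 1 of 8 tested, ALAS2, was separating and lower. Over all 15188 tested genes, 5.66% were separating and higher and 4.36% separating and lower. What part these markers have in the differences was not tested. In bulk RNA of a cell line, fewer cells holding a transcript and less of it per cell cannot be told apart.

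Depth was 35338785 and 23099132 gene counts in JURKAT and 19354300 to 43003124 in the B-lineage libraries, where a count of 0 allows up to 0.0711 to 0.159 CPM. CPM is not scaled by gene length, so levels are compared between libraries and not between genes. In RAJI 3R, 44.7% of reads fell in no gene, against 19.0% to 26.9% in the other 9 libraries. The denominator was gene counts plus reads in no gene plus ambiguous reads, and left out the remaining entries that name no gene. Spearman correlations over tested genes, as a description, were 0.989 to 0.996 between the libraries of a line, 0.796 to 0.820 between JURKAT and B-lineage libraries and 0.810 to 0.888 between B-lineage lines.

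Promoters of 4 genes on which the results below turn are shown as a reference, 2 of genes high in JURKAT and 2 of genes high in the B-lineage lines. They are RefSeq sequences of build GRCh38.p14, from 250 bases before to 50 bases after the annotated start, read 5′ to 3′ on the gene's strand. Capitals mark matches on either strand to CCAAT (known as the NF-Y motif), to GGAAGT (ETS factors), to TGTGGT (RUNX factors) or to CCCNNGGG (EBF1). CD3D is at chr11:118342656-118342955 on the minus strand, CD1E at chr1:158353644-158353943 on the plus strand, CD79A at chr19:41877029-41877328 on the plus strand and CD74 at chr5:150412861-150413160 on the minus strand.
CD3D: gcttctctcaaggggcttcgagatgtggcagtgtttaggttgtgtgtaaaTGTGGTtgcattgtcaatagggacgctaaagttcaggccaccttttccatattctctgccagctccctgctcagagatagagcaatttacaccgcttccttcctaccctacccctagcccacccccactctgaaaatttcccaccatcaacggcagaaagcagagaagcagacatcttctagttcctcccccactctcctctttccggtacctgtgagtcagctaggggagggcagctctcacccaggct
CD1E: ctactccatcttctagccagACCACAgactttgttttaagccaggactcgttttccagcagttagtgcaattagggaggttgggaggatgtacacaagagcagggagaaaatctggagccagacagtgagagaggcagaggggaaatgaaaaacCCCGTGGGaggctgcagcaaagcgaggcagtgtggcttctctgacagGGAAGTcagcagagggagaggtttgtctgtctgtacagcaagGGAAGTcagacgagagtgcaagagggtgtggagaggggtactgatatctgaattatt
CD79A: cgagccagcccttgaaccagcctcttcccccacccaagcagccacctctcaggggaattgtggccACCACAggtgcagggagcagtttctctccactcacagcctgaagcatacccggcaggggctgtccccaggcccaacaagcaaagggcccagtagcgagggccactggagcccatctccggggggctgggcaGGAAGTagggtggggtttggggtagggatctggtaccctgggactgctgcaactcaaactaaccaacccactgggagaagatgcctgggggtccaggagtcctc
CD74: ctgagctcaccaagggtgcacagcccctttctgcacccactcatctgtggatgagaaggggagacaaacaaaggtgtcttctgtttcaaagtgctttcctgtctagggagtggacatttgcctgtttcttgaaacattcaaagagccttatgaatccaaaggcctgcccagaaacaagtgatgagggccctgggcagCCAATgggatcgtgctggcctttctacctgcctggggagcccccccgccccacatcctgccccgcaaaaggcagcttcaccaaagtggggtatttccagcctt

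The CD3D window held a match to TGTGGT. CD1E held the reverse complement of TGTGGT, a match to CCCNNGGG, and GGAAGT at 2 places. CD79A held the reverse complement of TGTGGT, and also GGAAGT as written, and CD74 held CCAAT. Matches to AGATAA, known for binding GATA proteins, to the octamer ATGCAAAT and to the E-box CAGCTG were searched as well and were not in these windows. A match is a description of letters only. Over all 35116 promoter windows of that length, the share with a match was 34.6% for CCAAT, 22.8% for GGAAGT, 13.1% for TGTGGT, 19.1% for CCCNNGGG, 10.3% for AGATAA, 1.77% for ATGCAAAT and 17.9% for CAGCTG. Symbols could be matched to a window for 598 of the 860 genes that set JURKAT apart by being higher, and for 480 of the 662 that did so by being lower (defined below). Among the windows of the genes higher in JURKAT, 29.2% held CCAAT and 17.4% held GGAAGT. Among those of the genes lower in JURKAT, 34.0% held CCAAT and 27.0% held GGAAGT. Over the windows of all tested genes the shares were 34.4% for CCAAT and 25.7% for GGAAGT, so that the lower genes were close to that background. The octamer was in 1.44% of the windows of the higher genes (13 windows) and 2.85% of those of the lower genes (22 windows). Over the windows of all tested genes it was in 1.51%. In the same order, shares were 8.76%, 8.56% and 6.24% for AGATAA and 23.9%, 26.7% and 23.2% for CCCNNGGG. They were 9.87%, 10.9% and 10.5% for TGTGGT and 17.4%, 19.3% and 17.6% for CAGCTG. No test was made of these shares.

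The first question was how many genes differ between JURKAT and each B-lineage line. A gene was called when edgeR's quasi-likelihood test gave an adjusted p under 0.05 and the change was at least 2-fold, in a fit of the 10 libraries over 15188 tested genes. Against RS4-11, 2649 genes were higher in JURKAT (17.4% of those tested) and 2925 were lower (19.3%). Against KOPN8, 2683 were higher (17.7%) and 2420 lower (15.9%). Against RAJI, 3210 were higher (21.1%) and 2314 lower (15.2%). Against P493-6, 3165 were higher (20.8%) and 3129 lower (20.6%). The 4 comparisons share the JURKAT libraries, so their calls are not independent. Genes called in the same direction in all 4 comparisons, termed separating genes below, numbered 860 higher in JURKAT (5.66%) and 662 lower (4.36%). Another 483 genes were called against all 4 lines but not in 1 direction, and 5201 were called against none. Nothing in the labels says that the libraries of a line came from separate cultures, so the p-values measure the spread between the libraries of these lines, part of which may be technical.

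**Figure D1:**
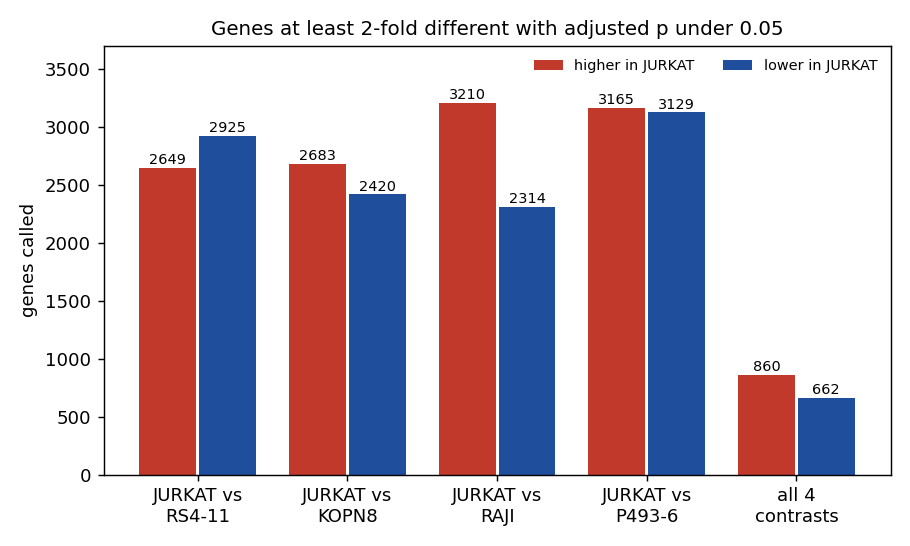
Number of genes called higher (red) or lower (blue) in JURKAT against each B-lineage line and, at the right, in the same direction against all 4; the vertical axis counts genes of 15188 tested. Each single comparison called between 2314 and 3210 genes in a direction, and 860 and 662 were called in all 4.

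On the log2 scale of CPM + 1, which narrows differences of genes with few counts, the median distance between the nearest JURKAT and B-lineage libraries was 1.46 for the higher and 1.27 for the lower separating genes. For 431 of the higher genes every B-lineage library was under 1 CPM, and 63 of these genes had no count in any of them. For 344 of the lower genes both JURKAT libraries were under 1 CPM, and 54 had no count in either. Such genes often passed the filter on low counts through the high side alone and then had to differ.

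A stricter comparison took the line as the unit, with the counts of its libraries summed (1 JURKAT sum against 4 B-lineage sums, 3 residual degrees of freedom). With so few lines an exact permutation cannot give a p below 0.2, and the edgeR fit assumes that JURKAT would vary as the other lines do. The fit called 6 genes higher (0.0373% of 16091 tested) and 2 lower (0.0124%), each at an adjusted p of 0.0494; at an unadjusted p under 0.05 the numbers were 546 and 541. The higher genes were CD1E, CD3D, CD5, TAL1, THEMIS and ELOVL4, which encodes a fatty acid elongase, and the lower ones were BTK and KCNQ5, a potassium channel gene. All 8 were among the separating genes. Chance alone would put a share of about 0.05 of the 16091 tested genes under the unadjusted limit. The 546 and 541 are therefore not to be read as calls. Leaving out any 1 of RS4-11, KOPN8, RAJI and P493-6 left 0 calls in either direction, and DESeq2 on the same sums called 274 higher and 720 lower.

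Genes with the widest distance between groups were taken as the clearest separators, 14 in each direction. They were picked by their values in these data, so the p-values given with them are description and no separate support. CD1E, a CD1 family member that helps load lipid antigens, had the widest distance among the higher genes. It was at 694 and 721 CPM in JURKAT, against 0 to 0.718 CPM (median 0.182) in the B-lineage libraries. The smallest of its 4 log2 changes was 10.62 ± 0.24 against P493-6, with an adjusted p of at most 1.21e-20. Here and below, the figure after ± was worked back from the test, as the change's size over the root of its F statistic. It was not estimated as a standard error, and where few reads were counted it can understate the uncertainty. Next came CD3D, with a smallest log2 change of 10.92 ± 0.20 against P493-6 (adjusted p at most 8.5e-22). TAL1, a basic helix-loop-helix factor and T cell leukemia oncogene, was at 366 and 377 CPM in JURKAT and 0.0667 to 0.265 CPM (median 0.0887) in the B-lineage libraries. For these 3 genes every B-lineage library was under 1 CPM. They passed the filter on low counts through JURKAT and then had to differ. FAT1, which encodes a giant cadherin, was at 438 CPM in both JURKAT libraries, against 0.053 to 0.757 CPM (median 0.273). FYB, an adaptor downstream of the T cell receptor, was at 556 and 614 CPM in JURKAT and 0.106 to 1.44 CPM (median 0.318) in the B-lineage libraries. THEMIS, a T lineage protein needed in thymic selection, was at 192 and 190.2 CPM in JURKAT, against 0 to 0.18 CPM (median 0.0887). The remaining higher genes of this set were ALDH1A2, SH2D1A, CD2, TSPAN7, SLIT1, CD1A, FBLN2 and CD3G.

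Several of these genes have no role that marks a T cell. ALDH1A2 makes retinoic acid from retinaldehyde. It was at 446 and 415 CPM in JURKAT and 0.0359 to 2.02 CPM (median 0.377) in the B-lineage libraries, where RS4-11 was highest. TSPAN7, a tetraspanin, was at 400.4 and 373 CPM in JURKAT, against 0 to 2.34 CPM (median 0.125). SLIT1, known as a guidance cue for axons, was at 301 and 275 CPM in JURKAT and 0.167 to 1.54 CPM (median 0.595) in the B-lineage libraries. FBLN2, an extracellular matrix protein, was at 150.3 and 117 CPM in JURKAT, against 0 to 0.0948 CPM (median 0). In each case both JURKAT libraries were far above every B-lineage library.

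In the other direction CD74, the invariant chain that escorts MHC class II molecules, had the widest distance of all. It was at 2.65 and 2.20 CPM in JURKAT and at 1816 to 5230 CPM (median 2120) in the B-lineage libraries, highest in RAJI. The smallest of its 4 log2 changes in size was -9.57 ± 0.15 against RS4-11 (adjusted p at most 2.15e-22). BTK, the kinase whose loss blocks B cell development in humans, was at 0.277 and 0.114 CPM in JURKAT, against 169.9 to 269 CPM (median 209). CD22, an inhibitory coreceptor of B cells, was at 0.176 and 0.228 CPM in JURKAT and 147 to 624 CPM (median 327) in the B-lineage libraries. The groups were apart in every library for all 3. DOCK8, an exchange factor for the GTPase CDC42, was at 0.353 and 0.304 CPM in JURKAT, against 157 to 285 CPM (median 225). WDFY4, known for its part in antigen cross-presentation by mouse dendritic cells, was at 0.353 and 0.266 CPM in JURKAT and 134 to 724 CPM (median 301) in the B-lineage libraries. KCNQ5 was at 0.0504 and 0.0759 CPM in JURKAT, 4 reads in all, against 67.6 to 102 CPM (median 88.5). VAMP8, a vesicle fusion protein, was at 0.781 and 0.38 CPM in JURKAT and 93.4 to 236 CPM (median 139) in the B-lineage libraries. These 4 genes, too, were low in both JURKAT libraries and in no other of the 10. HLA-DRA, HLA-DPA1, HLA-DPB1, CIITA, LYN, PAX5 and CD79B complete the set.

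**Figure D2:**
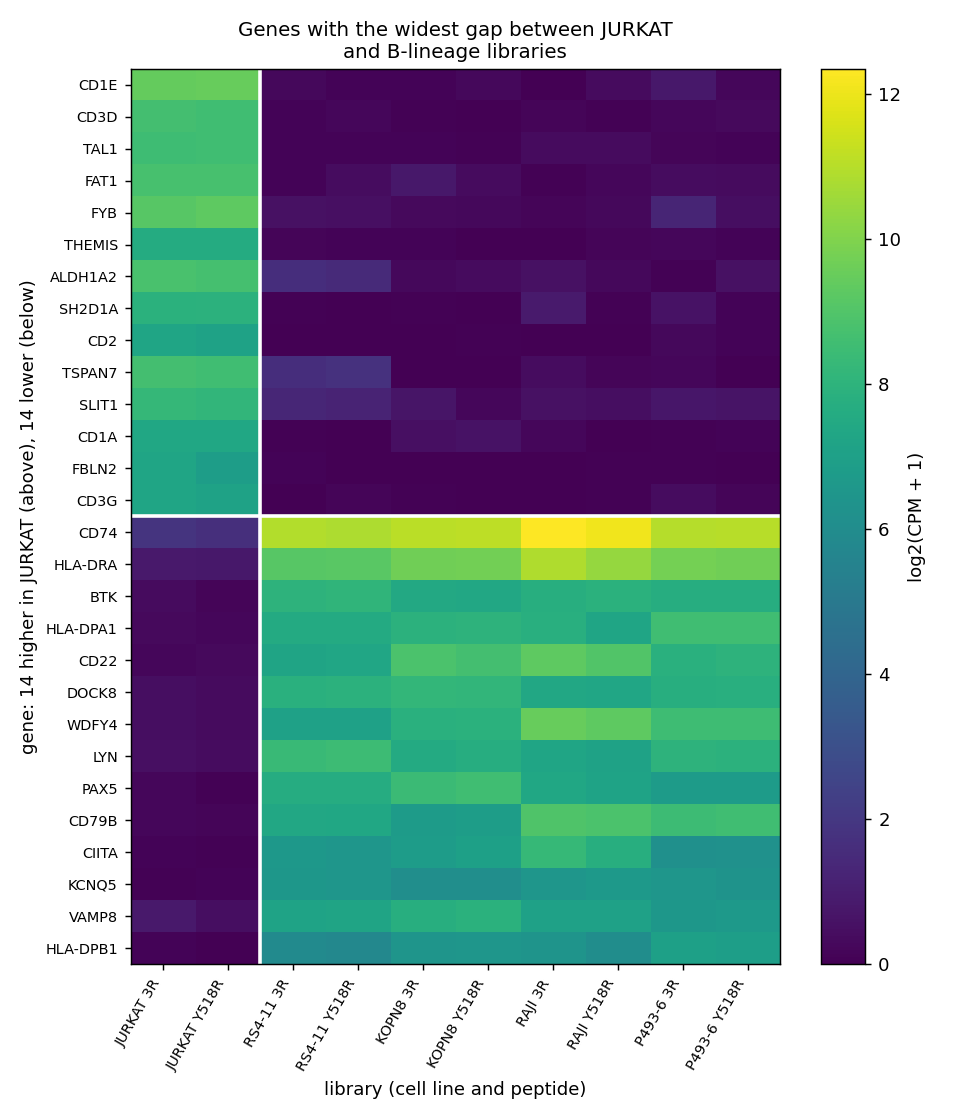
Heat map of log2(CPM + 1) in each of the 10 libraries (columns, JURKAT at the left) for the 14 genes higher in JURKAT (upper rows) and the 14 lower (lower rows) with the widest distance between groups. CD1E is bright in the JURKAT columns only (694 and 721 CPM), and CD74 in the B-lineage columns only (1816 to 5230 CPM).

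These genes were then set against the series' other lines in a fit of all 16 libraries. Of the 14 higher genes, 12 were also at least 2-fold higher in JURKAT than in MOLM13, THP1 and K562 with an adjusted p under 0.05 in each. The exceptions were TAL1 and ALDH1A2, which K562 also held. TAL1 had a log2 change of 0.43 in JURKAT against K562, where it was at 286 and 255 CPM. ALDH1A2 had a log2 change of -0.22 in JURKAT against K562, where it was at 474 and 510.4 CPM. Of the 14 lower genes, only 6 were also lower than in those 3 lines: BTK, DOCK8, LYN, PAX5, KCNQ5 and VAMP8. CD74 had a log2 change of -0.63 in JURKAT against K562, under 2-fold, and was at 3.96 and 3.53 CPM in K562. Over all separating genes, 438 of the 860 higher (50.9%) and 265 of the 662 lower (40.03%) were called in the same direction against all 3 lines. At the other end, 55 higher and 75 lower genes were called the same way against none of them, and 132 and 114 were called the opposite way against at least 1. These comparisons share the JURKAT libraries with the main one.

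The CD3 chains and the proteins that sit with them form the receptor end of T cell signalling. Of 9 genes listed, 6 have a symbol in the files and were tested, and the constant-region genes of the receptor itself were not analysed here. CD3D, CD3E, CD3G, CD247 and TRAT1 were separating and higher in JURKAT, and 3 of the 6 passed the filter on low counts only through JURKAT. CD247, the zeta chain, was at 185 and 154 CPM in JURKAT, against 0 to 3.49 CPM (median 0.16), where RAJI was highest. TRAT1, a transmembrane adaptor, was at 37.2 and 35.8 CPM in JURKAT and 0 to 0.317 CPM (median 0.033) in the B-lineage libraries. PTCRA, the surrogate alpha chain of immature T cells, was at 6.15 and 6.95 CPM in JURKAT, against 0 to 14.5 CPM (median 3.36), and was higher than JURKAT in P493-6. The median difference of the 6 genes, JURKAT minus the B-lineage mean on log2(CPM + 1), was 6.92, beside a median of -0.0046 over all 15188 tested genes. Counts of this list and of those below stand beside 5.66% separating and higher and 4.36% separating and lower over all tested genes.

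Behind the receptor, 13 of 24 proximal signalling genes were separating, all higher in JURKAT, and none was separating and lower (median difference 3.31). LCK, the kinase that phosphorylates the CD3 chains, was at 746 and 675 CPM in JURKAT and 5.35 to 123 CPM (median 25.5) in the B-lineage libraries. KOPN8 held the upper end of that range, and the smallest log2 change, against KOPN8, was 2.60 ± 0.12 (adjusted p at most 5.32e-15). ZAP70, which docks on the phosphorylated chains, was at 419 and 391 CPM in JURKAT, against 0.0529 to 179 CPM (median 31.4). RS4-11 was at 179 and 172 CPM and KOPN8 at 62.3 and 74.5 CPM, whereas RAJI and P493-6 were under 1 CPM. ZAP70 was thus closest to JURKAT in RS4-11, with a log2 change of 1.21 ± 0.12 (adjusted p at most 6.08e-09). LAT, the adaptor that ZAP70 phosphorylates, was at 144 and 127 CPM in JURKAT and 0.847 to 9.84 CPM (median 1.47) in the B-lineage libraries. SH2D1A, the adaptor SAP of the SLAM receptors, was at 234 and 243 CPM in JURKAT and 0 to 0.847 CPM (median 0.0502) in the B-lineage libraries. For LAT and SH2D1A no B-lineage library came near JURKAT. PLCG1, the phospholipase that LAT recruits, was at 323 and 286 CPM in JURKAT, against 53.2 to 111 CPM (median 67.1), with a smallest log2 change of 1.49 ± 0.11 against RAJI (adjusted p at most 2.96e-11). GRAP2, FYB, THEMIS, UBASH3A, PRKCQ, SLA2 and SKAP1 were among the other separating genes of the list.

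The remaining 11 members were not separating, and several are shared by T and B cells. VAV1, an exchange factor used by both receptors, was at 183 and 164 CPM in JURKAT and 67.1 to 176 CPM (median 86.0) in the B-lineage libraries. FYN was at 108 and 103 CPM in JURKAT, against 6.57 to 135 CPM (median 60.3), and RS4-11 was the higher line there. LCP2, the adaptor SLP-76, was at 77.1 and 68.2 CPM in JURKAT and 0.529 to 39.5 CPM (median 13.1) in the B-lineage libraries. Its libraries did not overlap, and against RS4-11 its log2 change of 0.88 ± 0.15 was under 2-fold.

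On the B cell side, 12 of 20 genes of the B cell receptor and its signalling were separating, all lower in JURKAT (median difference -4.09), and 5 of the 20 passed the filter only through B-lineage libraries. CD79B was at 0.176 and 0.114 CPM in JURKAT, against 108 to 493.1 CPM (median 260.4). CD79A, given above, had a smallest log2 change of -4.48 ± 0.11 against P493-6 (adjusted p at most 3.31e-20) and was still counted 1263 times in JURKAT. The pair of receptor chains thus differed in how low they were in JURKAT. LYN, the kinase that starts the signal, was at 0.428 and 0.342 CPM in JURKAT and 139 to 356 CPM (median 224) in the B-lineage libraries. SYK, the B cell counterpart of ZAP70, was at 95.01 and 100.3 CPM in JURKAT, against 348 to 655 CPM (median 447). Its smallest log2 change was -1.88 ± 0.09 against RS4-11 (adjusted p at most 1.39e-14). SYK was lower in both JURKAT libraries than in any other but was not near 0. BLNK was at 0.882 and 0.683 CPM in JURKAT and 11.50 to 100.5 CPM (median 75.7) in the B-lineage libraries, lowest in RS4-11. PLCG2, the B cell counterpart of PLCG1, was at 16.1 CPM in both JURKAT libraries, against 156 to 544 CPM (median 285). PIK3AP1, the adaptor BCAP that links the receptor to phosphoinositide 3-kinase, was at 5.85 and 3.72 CPM in JURKAT and 158 to 745 CPM (median 586) in the B-lineage libraries. BLK, VPREB3, DAPP1 and FCRLA completed the separating members. PRKCB was at 159 and 157 CPM in JURKAT, against 9.56 to 225 CPM (median 144), and overlapped the B-lineage range.

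**Figure D3:**
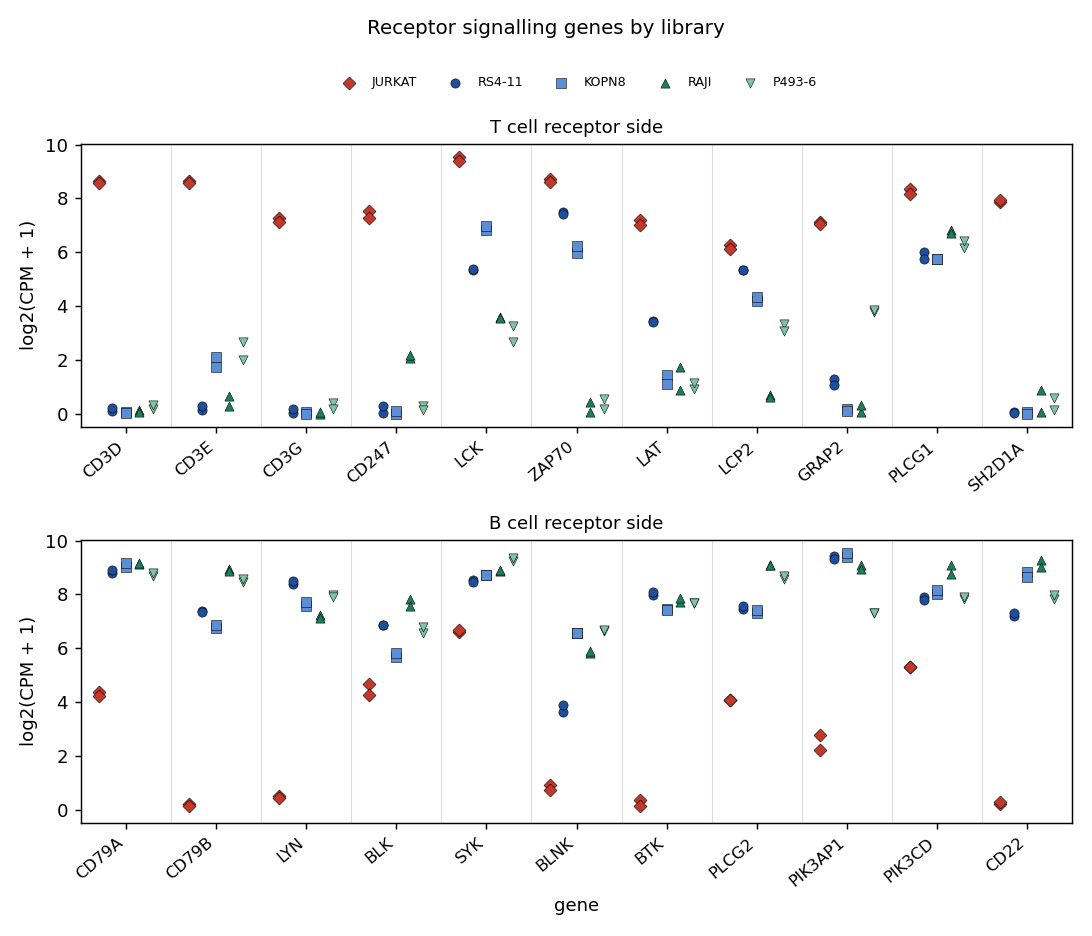
Level of each gene as log2(CPM + 1), a point per library, for 11 genes of the T cell receptor side (upper panel) and 11 of the B cell receptor side (lower panel), with JURKAT drawn leftmost as red diamonds. JURKAT is the highest line for the upper genes, most narrowly for LCP2 and ZAP70, and the lowest for the lower genes, where SYK remains at 95.01 and 100.3 CPM. The genes drawn were chosen and do not stand for their lists. Members called in mixed directions, 4 in the proximal signalling list and 3 in the B cell receptor list, are not drawn.

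Of 26 genes of T cell surface and costimulation, 25 were tested, 13 were separating and higher in JURKAT and 2 separating and lower (median difference 3.00); 6 passed the filter only through JURKAT. The CD1 genes encode lipid-presenting molecules that cortical thymocytes carry. CD1A was at 161 and 165 CPM in JURKAT, against 0 to 0.5 CPM (median 0.0586). CD1B was at 70.9 and 78.5 CPM in JURKAT and 0 to 0.0623 CPM (median 0) in the B-lineage libraries. CD1C was at 64.0 and 77.5 CPM in JURKAT, against 0.0529 to 0.965 CPM (median 0.276). CD1D was at 64.5 and 68.8 CPM in JURKAT and 0 to 0.647 CPM (median 0.174) in the B-lineage libraries. All 5 members of the family were thus above 60 CPM in both JURKAT libraries and under 1 CPM in all 8 others. CD2, an adhesion receptor, was at 153 and 137 CPM in JURKAT, against 0 to 0.216 CPM (median 0.0274). CD5, an inhibitory coreceptor, was at 92.9 and 76.7 CPM in JURKAT and 0 to 0.126 CPM (median 0.0708) in the B-lineage libraries. CD28, the main costimulatory receptor, was at 143 and 133 CPM in JURKAT, against 0.0334 to 0.623 CPM (median 0.0685). The coreceptor genes were low even in JURKAT, with CD4 at 12.05 and 11.0 CPM, CD8A at 1.31 and 1.48 CPM and CD8B at 2.27 and 1.48 CPM, against at most 0.477, 0.0948 and 0.0948 CPM in the B-lineage libraries. CD8A was no longer separating without JURKAT Y518R (smallest log2 change 3.81, against 4.83 with both).

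Some T cell surface genes were lower in JURKAT or overlapped. IL7R, the interleukin-7 receptor that T and B precursors both use, was at 3.98 and 3.99 CPM in JURKAT and 11.49 to 147 CPM (median 66.4) in the B-lineage libraries. Its log2 change was smallest against RAJI, at -1.69 ± 0.14 (adjusted p at most 4.05e-10). CCR7, a homing receptor, was at 0.958 and 0.911 CPM in JURKAT, against 1.62 to 335 CPM (median 15.9), with a smallest log2 change of -1.10 ± 0.40 against RS4-11 (adjusted p at most 0.0186). Without JURKAT 3R that value was -0.72 and CCR7 was not separating; nor was it without the peptide term or with all 16 libraries in the fit. CD7, among the earliest T lineage markers, was at 62.9 and 52.8 CPM in JURKAT and 0 to 46.1 CPM (median 0.316) in the B-lineage libraries, where KOPN8 alone was high.

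Of 22 B cell surface genes 12 were separating, all lower in JURKAT (median difference -4.06), and 11 of the 22 passed the filter only through B-lineage libraries. CD37, a tetraspanin of mature B cells, was at 1.03 and 1.25 CPM in JURKAT and 49.2 to 274 CPM (median 157) in the B-lineage libraries. CD72, a coreceptor, was at 2.95 and 2.85 CPM in JURKAT, against 45.1 to 310.3 CPM (median 118). CD180, a relative of the Toll-like receptors, had no count in JURKAT and was at 3.66 to 94.1 CPM (median 58.8) in the B-lineage libraries, which is at least 32.1-fold lower in JURKAT against a floor of 3 counts per library. CD38, an enzyme carried by many lymphoid cells, was at 11.7 and 10.9 CPM in JURKAT, against 43.3 to 116 CPM (median 80.7). CD22, CD40, FCER2, FCRL1, FCRL5, TNFRSF13B and TNFRSF13C were among the other separating members. None of the 22 was separating and higher in JURKAT. CR2, the complement receptor CD21, was at 8.09 and 10.1 CPM in JURKAT, above 3 of the lines and below RAJI.

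**Figure D4:**
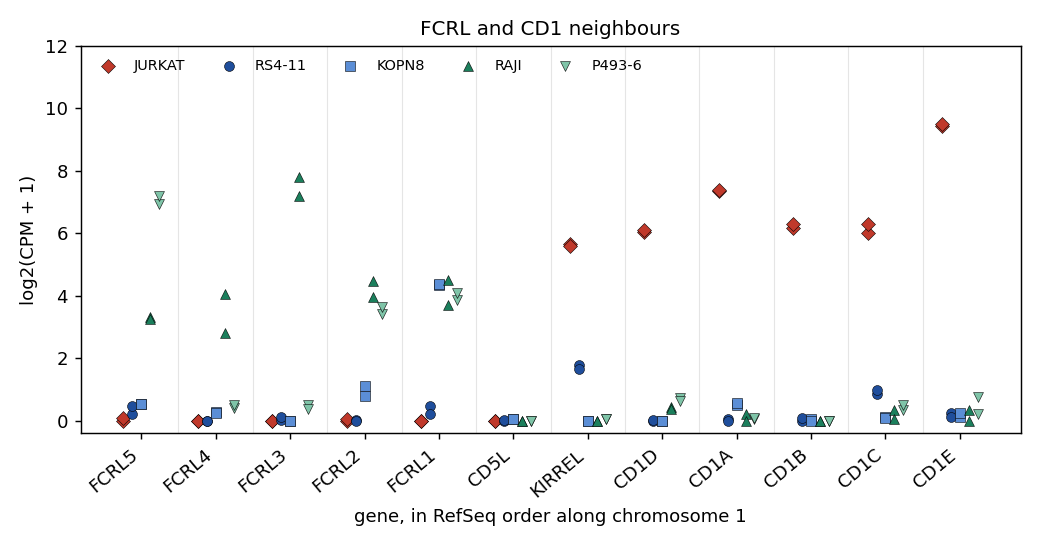
Level as log2(CPM + 1), a point per library, of 12 neighbouring genes in RefSeq order along chromosome 1, from the Fc receptor-like genes to CD1E, with JURKAT drawn leftmost as red diamonds. JURKAT is at or near 0 for the FCRL genes and above 60 CPM for the CD1 genes, while the B-lineage lines are under 1 CPM for the CD1 genes and differ among themselves for the FCRL genes.

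The CD1 genes lie beside the FCRL genes on chromosome 1. The difference turned direction from FCRL1 and FCRL5, which were separating and lower in JURKAT, to the CD1 genes. FCRL2, FCRL3 and FCRL4 were not separating, being at or near 0 in RS4-11 as in JURKAT. RS4-11 held only 22 reads of FCRL1 and 20 of FCRL5. FCRL1, a B cell surface receptor, had no count in JURKAT and was at 0.156 to 21.6 CPM (median 14.9) in the B-lineage libraries. KIRREL, an adhesion gene between both families, was at 50.1 and 47.3 CPM in JURKAT and 0 to 2.49 CPM (median 0.0175) in the B-lineage libraries. In the order of the 14502 tested genes that could be placed on a chromosome of the RefSeq annotation, used for order only, separating genes of 1 direction stood side by side in runs of 3 or more at 17 places for higher genes (62 genes) and 18 for lower genes (55 genes). The longest run was of 7 higher genes and held the 5 CD1 genes between KIRREL and OR10R2. The next was a run of GIMAP7, GIMAP4, GIMAP6, GIMAP2, GIMAP1 and KCNH2, where the GIMAP genes encode GTPases of lymphocytes. GIMAP6 was at 54.4 and 47.2 CPM in JURKAT, against 0 to 1.802 CPM (median 0.561). GIMAP2 was at 62.0 and 55.4 CPM in JURKAT and 0.529 to 29.2 CPM (median 12.7) in the B-lineage libraries. CD3E, CD3D and CD3G formed a run of higher genes on chromosome 11. Among the lower genes, runs were formed by HLA-DRA, HLA-DRB1, HLA-DQA1 and HLA-DQB1, by HLA-DOA, HLA-DPA1 and HLA-DPB1, by TCL6, TCL1B and TCL1A, and by TLR10, TLR1 and TLR6. TLR10, a Toll-like receptor known from B cells, was at 0.101 and 0.0759 CPM in JURKAT, against 29.8 to 187 CPM (median 80.8). The counting's strand setting is not given, so reads of overlapping neighbours cannot be told apart.

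Of 16 transcription factors of the T lineage, 3 were separating and higher in JURKAT, and 1 was separating and lower (median difference 1.20). Over all tested genes the shares were 5.66% and 4.36%, and counts this small say little about the list as a whole. TCF7, which acts early in T cell commitment, was at 636 and 629 CPM in JURKAT and 0.261 to 28.1 CPM (median 8.46) in the B-lineage libraries. Its smallest log2 change was 4.54 ± 0.26 against KOPN8 (adjusted p at most 3.72e-13). BCL11B, which completes that commitment, was at 177 and 168 CPM in JURKAT, against 0 to 2.35 CPM (median 0.0878). TOX, a thymocyte nuclear factor, was at 147 CPM in both JURKAT libraries and 0.0349 to 52.6 CPM (median 32.3) in the B-lineage libraries, lowest in P493-6. GATA3, another factor of T cell commitment, was at 67.7 and 68.2 CPM in JURKAT, against 0 to 35.5 CPM (median 0.103). RS4-11 alone among the B-lineage lines was above 1 CPM, and against it the log2 change of 0.95 ± 0.18 was under 2-fold. LEF1, the relative of TCF7, was at 869.9 and 852 CPM in JURKAT and 0.741 to 627 CPM (median 334) in the B-lineage libraries, with the fusion lines RS4-11 and KOPN8 highest. RUNX1 was at 533 and 521 CPM in JURKAT, against 24.4 to 423 CPM (median 72.7). Both JURKAT libraries were above every other for LEF1 and RUNX1, yet by less than 2-fold over RS4-11. ZBTB7B, which directs T cells to the CD4 lineage, was the gene that separated in the lower direction, at 0.68 and 0.418 CPM in JURKAT and 26.5 to 47.6 CPM (median 39.7) in the B-lineage libraries.

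Oncogenes of T cell leukemia and the NOTCH pathway made a list of 19, of which 15 were tested, 6 were separating and higher and 2 separating and lower (median difference 1.41); 4 passed the filter only through JURKAT. TAL1, described above, acts with LMO proteins. LMO1 was at 5.75 and 6.95 CPM in JURKAT with no count in any B-lineage library, at least 36.2-fold higher against the floor of 3 counts per library. LMO2 was at 0.0756 and 0.114 CPM in JURKAT, against 14.7 to 135 CPM (median 34.2), and LYL1, the TAL1 relative, at 0.706 and 0.266 CPM in JURKAT and 11.96 to 64.4 CPM (median 34.9) in the B-lineage libraries. Within the TAL1 and LYL1 pair and the LMO1 and LMO2 pair, JURKAT was thus higher for one gene and lower for the other. MYCN was at 4.33 and 3.38 CPM in JURKAT with no count elsewhere, at least 21.3-fold higher against the same floor. DESeq2 did not call LMO1 or MYCN against every line. NOTCH3 was at 121 and 99.7 CPM in JURKAT and 0 to 0.37 CPM (median 0.173) in the B-lineage libraries. NOTCH1 was at 109 and 98.5 CPM in JURKAT, against 20.5 to 326 CPM (median 95.1), so that the groups overlapped. HES4, a target of NOTCH signalling, was at 60.1 and 53.0 CPM in JURKAT and 0 to 2.76 CPM (median 0.0366) in the B-lineage libraries. Other NOTCH genes did not follow it. HES1 was at 8.27 and 6.64 CPM in JURKAT, above RS4-11, KOPN8 and P493-6 and below RAJI (32.0 and 19.2 CPM). DTX1 was at 31.9 and 29.8 CPM in JURKAT, above RS4-11 and below KOPN8, RAJI and P493-6.

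Transcription factors of the B lineage were separating and lower in 11 of 20 cases, and none was separating and higher (median difference -3.14); 4 passed the filter only through B-lineage libraries. PAX5 was at 0.151 and 0.038 CPM in JURKAT, against 108 to 379 CPM (median 179). EBF1, which specifies the lineage together with PAX5, was at 1.26 and 0.911 CPM in JURKAT and 50.1 to 215 CPM (median 141) in the B-lineage libraries. SPI1, the ETS factor PU.1, was at 0.202 and 0.0759 CPM in JURKAT, against 57.9 to 93.2 CPM (median 84.1). Both JURKAT libraries were near 0 for PAX5 and SPI1 and about 1 CPM for EBF1. MEF2C, a MADS-box factor, was at 0.58 and 0.493 CPM in JURKAT and 65.6 to 1013 CPM (median 521) in the B-lineage libraries, highest in RS4-11. IRF4 was at 0.151 and 0.0759 CPM in JURKAT, against 27.1 to 169.8 CPM (median 132), and its relative IRF8 at 5.49 and 4.71 CPM in JURKAT and 23.8 to 369 CPM (median 155) in the B-lineage libraries. POU2AF1, the coactivator of octamer factors in B cells, was at 6.50 and 6.53 CPM in JURKAT, against 53.2 to 623 CPM (median 161). POU2F2, SPIB, FOXO1 and RELB completed the separating members. BCL6, the germinal centre repressor, was at 5.70 and 4.59 CPM in JURKAT and 0.279 to 249 CPM (median 103) in the B-lineage libraries, where P493-6 was the 1 line below JURKAT. TCF4 was at 7.13 and 7.71 CPM in JURKAT, against 4.72 to 380.4 CPM (median 141), with RS4-11 below JURKAT.

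**Figure D5:**
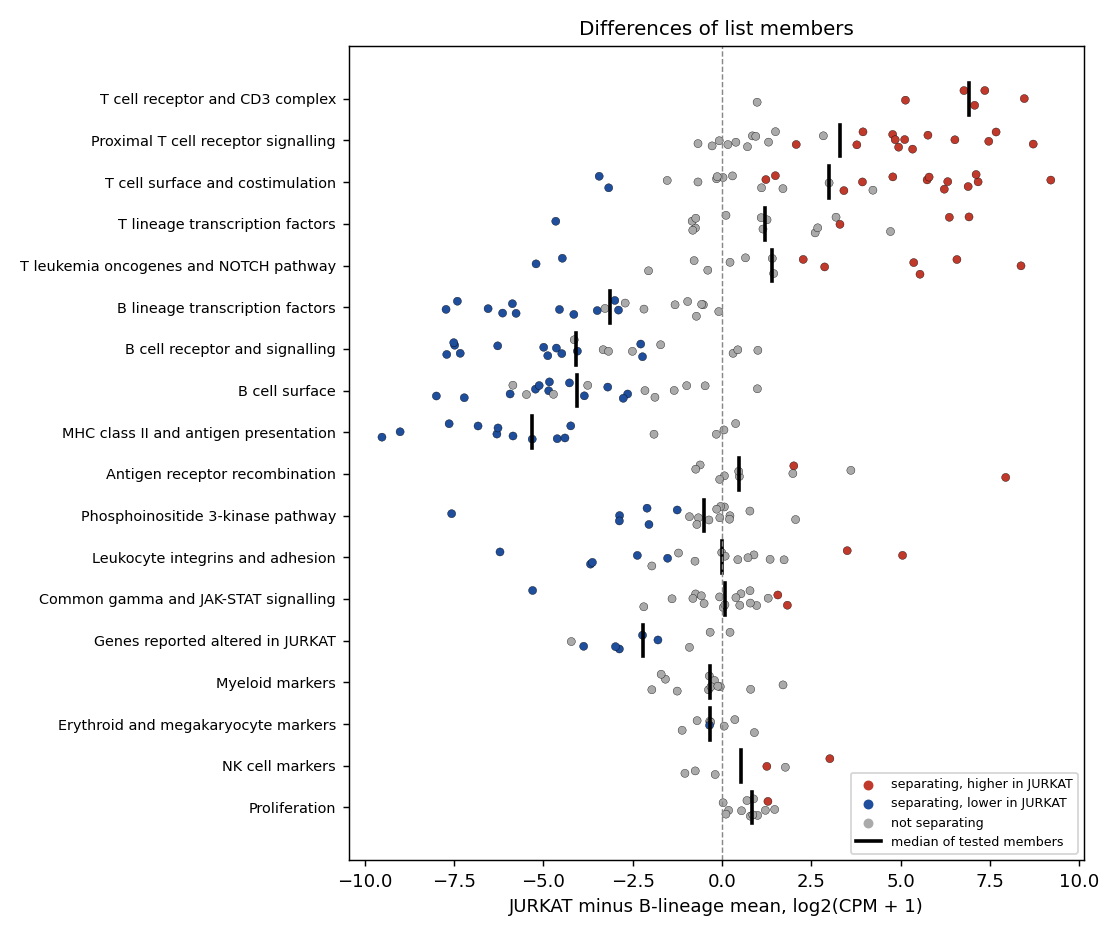
Each point is a tested member of a gene list, placed by its JURKAT minus B-lineage difference in mean log2(CPM + 1), with separating genes in red (higher in JURKAT) or blue (lower) and black bars at list medians. The T cell receptor list has its median at 6.92 and the MHC class II list at -5.31, and the median of all tested genes is -0.0046.

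MHC class II genes showed the lowest list median, at -5.31, with 11 of 15 tested members separating and lower in JURKAT and none separating and higher; 5 passed the filter only through B-lineage libraries. HLA-DRA was at 0.781 and 0.721 CPM in JURKAT, against 574 to 1910 CPM (median 835). HLA-DPA1 was at 0.252 and 0.152 CPM in JURKAT and 154 to 384 CPM (median 234) in the B-lineage libraries. CIITA, the coactivator on which class II transcription rests, was at 0.101 and 0.038 CPM in JURKAT, against 72.1 to 313 CPM (median 105). All 8 B-lineage libraries held these transcripts and neither JURKAT library exceeded 1 CPM. HLA-DMA, which loads peptide on class II molecules, was at 2.14 and 1.94 CPM in JURKAT and 58.4 to 215 CPM (median 122) in the B-lineage libraries. HLA-DOA, its inhibitor's alpha chain, was at 4.81 and 3.57 CPM in JURKAT, against 52.1 to 202 CPM (median 119). HLA-DOB, the beta chain, was at 2.34 and 1.75 CPM in JURKAT and 0.405 to 97.8 CPM (median 10.8) in the B-lineage libraries, with RS4-11 below JURKAT. The factors that bind class II promoters and recruit CIITA were not called against any line. RFX5 was at 167 and 173 CPM in JURKAT, against 127 to 239 CPM (median 205). RFXAP was at 38.1 and 43.7 CPM in JURKAT and 20.5 to 49.8 CPM (median 31.1) in the B-lineage libraries. RFXANK was at 42.2 and 38.6 CPM in JURKAT, against 31.2 to 52.7 CPM (median 38.6), so that all 3 overlapped. HLA genes have near-identical copies, and their reads may have been divided between them.

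Of 10 genes of antigen receptor recombination, DNTT and LIG4 were separating, both higher in JURKAT (median difference 0.48), beside 5.66% over all tested genes. DNTT, the terminal transferase that adds bases at V(D)J joints, was at 438 and 467 CPM in JURKAT and 0.042 to 4.43 CPM (median 0.413) in the B-lineage libraries, highest in RS4-11. Its smallest log2 change was 6.68 ± 0.13 (adjusted p at most 1.6e-21). LIG4, which seals the joint, was at 132 and 149 CPM in JURKAT, against 15.4 to 47.0 CPM (median 43.5). Both JURKAT libraries were above every other for DNTT and LIG4. RAG1, a chain of the recombinase, was at 77.4 and 97.1 CPM in JURKAT and 0.0349 to 204 CPM (median 4.54) in the B-lineage libraries: below RS4-11 and above the other 3 lines. RAG2 was at 41.9 and 44.5 CPM in JURKAT, against 0.0349 to 125 CPM (median 51.5), below RS4-11 and KOPN8 and above RAJI and P493-6.

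Phosphoinositide 3-kinase genes were examined because JURKAT is widely reported to lack the lipid phosphatase SHIP1. Of 18 genes, 6 were separating and lower in JURKAT and none separating and higher (median difference -0.51); 3 passed the filter only through B-lineage libraries. PIK3CD, the leukocyte catalytic subunit, was at 38.9 and 38.5 CPM in JURKAT and 220.3 to 545 CPM (median 247) in the B-lineage libraries. INPP5D, which encodes SHIP1, was at 34.6 and 33.9 CPM in JURKAT, against 179 to 361 CPM (median 256), with a smallest log2 change of -2.42 ± 0.10 against P493-6 (adjusted p at most 3.64e-16). TCL1A, an AKT coactivator of B cells, was at 0.227 and 0.152 CPM in JURKAT and 44.7 to 1664 CPM (median 196) in the B-lineage libraries. Both JURKAT libraries were below all others for these 3 genes. INPPL1, INPP4B and TCL1B were the other separating members. Counts of a transcript say nothing of the protein made from it.

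Among 9 genes reported as altered in JURKAT, 5 were separating and lower in JURKAT and none separating and higher (median difference -2.23); 2 passed the filter only through B-lineage libraries. BAX, an effector of apoptosis, was at 26.2 and 25.3 CPM in JURKAT and 69.1 to 133 CPM (median 90.3) in the B-lineage libraries. BAX was lower in both JURKAT libraries than in any other of the 10, without being near 0. CDKN2A had no count in JURKAT; it was at 0 to 137 CPM (median 50.6) in the B-lineage libraries, where RS4-11 had 1 read in all and so could not be told from JURKAT. INPP5D and SYK, described above, were also among the 5.

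Of 17 tested genes of leukocyte adhesion, 2 were separating and higher in JURKAT and 5 separating and lower (median difference -0.01). Over all tested genes the shares were 5.66% and 4.36%. Of the 17, 3 passed the filter only through B-lineage libraries. SELPLG, the ligand of P-selectin, was at 131 and 107 CPM in JURKAT, against 0.522 to 10.6 CPM (median 2.51). PECAM1 was at 31.5 and 32.6 CPM in JURKAT and 0.424 to 8.48 CPM (median 1.37) in the B-lineage libraries. ITGB7, an integrin chain of gut homing, was at 6.17 and 6.04 CPM in JURKAT, against 31.8 to 178 CPM (median 105). CD44 was at 0.454 and 0.266 CPM in JURKAT and 0.688 to 656 CPM (median 298) in the B-lineage libraries, with RAJI as low as 1.54 and 0.688 CPM. Without RAJI 3R its smallest log2 change was -0.90, against -1.56 with it, and CD44 was not separating. Among 19 tested genes of common gamma chain and JAK-STAT signalling, 2 were separating and higher, and 1 was separating and lower (median difference 0.08), beside 5.66% higher and 4.36% lower over all tested genes. At such small numbers these counts are near that background. That 1 was IL21R, at 1.69 and 0.759 CPM in JURKAT, against 53.9 to 105 CPM (median 92.1). The higher ones were STAT4, at 2.92 and 2.85 CPM in JURKAT, and SOCS3, at 1.97 and 2.51 CPM in JURKAT, and each lost the call when JURKAT 3R was left out. Of 12 proliferation genes only CCNB1, cyclin B1, was separating, at 239.9 and 254 CPM in JURKAT and 72.6 to 126 CPM (median 109.5) in the B-lineage libraries, and the median difference of the list was 0.83. The remaining 11 were called against 2 lines at most and never as lower in JURKAT.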

How the data were processed

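Each of the 16 libraries holds RNA sequenced from 1 cell line with 1 peptide. The authors deposited raw read counts per gene symbol, 1 table per library. Tools named, without roles, in the submitters' processing notes are HTSeq 0.6.1, TopHat2 2.1.1, CASAVA 1.8.4, DESeq and DESeq2 3.0. They name GRCh38 and hg19 both, and the sources used here do not say which was counted or with what strand setting. Summary entries without a gene, 5 per table, entered neither library sizes nor tests. Among them are the reads that fell in no gene. In these 10 libraries they were 19.0% to 44.7% of gene counts, reads in no gene and ambiguous reads together.

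From these counts, edgeR 4.0.16 (R 4.3.3) fitted the 10 libraries with line and peptide as terms (TMM scaling, filterByExpr with a minimum count of 10, quasi-likelihood test, 4 residual degrees of freedom), with Benjamini-Hochberg adjustment over all tested genes. CPM are counts scaled to a common total over genes. A gene separates JURKAT when it has an adjusted p under 0.05 and at least a 2-fold change, in 1 direction, against all 4 lines. Genes named are the 14 in each direction with the widest distance between the nearest libraries on log2(CPM + 1), the list members, and the longest runs of neighbours, these last being picked with their values in view. The members and lists were chosen with earlier results of these data known. Line sums, all 16 libraries and DESeq2 1.42.0 served as further fits. Values of some list members are not reported here, though the counts of lists include them. Scripts were tested on simulated data. Libraries of the same peptide in different lines share only the peptide, and the deviations of their lines correlated between -0.15 and 0.09.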

Additional observations from a re-analysis of the deposited data

Results flagged for a closer look

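In RAJI 3R, 44.7% of reads, on the denominator given above, were given to no gene, a value that stood apart from the other B-lineage libraries. Chance alone flags about 1 in 20 groups of this kind. Without RAJI 3R, 829 genes were separating and higher in JURKAT and 633 separating and lower.

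Of the 28 named genes, 6 had 1 B-lineage line whose mean stood apart from the means of the other 3. CD1E averaged 0.446 CPM in P493-6 and 0.132 to 0.142 CPM in the others. That P493-6 mean rests on 20 reads in 3R and 5 in Y518R. TAL1 averaged 0.265 CPM in RAJI and 0.0754 to 0.0888 CPM in the others. It was counted 5 times in each RAJI library, close to the floor of 3 counts. ALDH1A2 averaged 1.88 CPM in RS4-11 and 0.245 to 0.344 CPM elsewhere. TSPAN7 averaged 2.22 CPM in RS4-11 and 0.0167 to 0.212 CPM elsewhere. CD1A averaged 0.460 CPM in KOPN8 and 0.0237 to 0.0794 CPM elsewhere. CD74 averaged 4775 CPM in RAJI and 1868 to 2177 CPM in the other lines.

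Of 269 tested list genes, 19 were called against all 4 B-lineage lines but not in 1 direction, being higher in JURKAT than some lines and lower than others. The comparisons share the JURKAT libraries. Over all 15188 tested genes the number was 483. For each of the 19, edgeR's quasi-likelihood test of the difference between the 4 lines gave an adjusted p of at most 1.02e-12. The 19 were picked for calls in both directions in the same fit, so the lines had to differ. That p is therefore no separate support. The span between the highest and the lowest of the 4 log2 changes was 13.02 for DTX1 and 12.55 for HES1, which belong to NOTCH signalling. Among receptor signalling genes it was 11.02 for UBASH3B, 9.75 for RASGRP3, 7.84 for SH2D2A and 3.23 for PTPN22. For surface genes it was 12.93 for CR2, 9.71 for CD96, 3.64 for CD58 and, for a gene of cytotoxic granules, 6.96 for NKG7. Transcription factors had spans of 9.57 for BCL6, 8.70 for TOX2, 7.74 for IKZF3 and 7.47 for RUNX3. It was 11.21 for RAG1, 11.06 for RAG2, 10.39 for IGLL1, part of the surrogate light chain, and 7.48 for HLA-DOB.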

How the results depend on the processing

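The 860 higher and 662 lower separating genes became 864 and 667 with median-ratio size factors, 834 and 676 with no filter, 622 and 654 with DESeq2, 868 and 656 with all 16 libraries, and 646 to 829 and 608 to 683 when each library was left out in turn. Without the peptide term, which is the replicate block of this design, they were 904 and 665; the numbers shared between lines are peptides and not pairs. A 4-fold minimum left 584 and 440, and no fold minimum gave 1673 and 1421. Requiring at least 1 CPM on the higher side, an alternative chosen after seeing the data, left 89.1% of the higher and 78.2% of the lower genes. With 1 line fewer to separate from, lower genes numbered 1037 without RAJI. With a 4-fold minimum the single comparisons gave 1605 higher and 1925 lower against RS4-11, 1546 lower against KOPN8, 1378 lower against RAJI, and 1873 higher and 1921 lower against P493-6. With no fold minimum they gave 4943 and 4947 against RS4-11, 4723 and 4496 against KOPN8, 5247 and 4442 against RAJI, and 5280 and 5086 against P493-6. The 6 and 2 calls over line sums became 480 and 473 when the 10 libraries were entered singly, 274 and 720 with DESeq2, 4 lower with median-ratio size factors and with no filter, and 0 in both directions without any 1 of the 4 lines; the cause was not tested. The fit with the 10 libraries entered singly has no term for line. It treats the libraries of a line as independent replicates, so its 480 and 473 calls overstate the support. Of 125 separating genes in the lists or named, 98 kept their call in all 21 settings and none reversed. The 28 named genes kept it in each. The 28 were picked for the widest distance in these same data, so their keeping the call is no separate support. With no fold minimum or with 1 line fewer the rule asks less, so those settings could hardly remove a call. With 1 T cell line, JURKAT and T lineage cannot be told apart.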
